A study of Mus musculus with 16 samples.

Results

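The 100 most abundant rows of the lncRNA table were examined in mouse skeletal muscle. A row is 1 transcript of the table, and the rows were ranked by their mean expected count over all 16 mice. Rows that overlap 4 fixed genomic regions, on chromosomes 11, 12, 14, and 19, were left out of the ranking, which left 58080 of the 58245 rows, and 3 of the rows left out would otherwise have been among the first 100. The members were thus chosen by their mean count, so their abundance is a description and was not tested. The row in place 100, in the 3′ UTR of Vezf1, had a mean count of 1675, and the rows in places 98 and 99 (Acadsb and Ddi2) had 1694 and 1684. The first 3 rows outside, in places 101, 102, and 103, had 1671, 1664, and 1624. They lie in Tmod1 and, for the last 2, in Lncpint.

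The mice were male C57BL/6J mice, 6 weeks old at the start, with 4 mice in each of 4 groups and 1 library per mouse. The control group received a normal diet. The HFD group received a high-fat diet, which was given for 8 weeks to produce insulin resistance. The HFD + RSV group then received resveratrol, a plant polyphenol, for 6 weeks, and the HFD + MET group received metformin, a glucose-lowering drug, for 6 weeks. All treated mice had the diet, and the diet and treatment of a mouse cannot be told apart from the cage or batch that its label may mark. The study's methods name no vehicle treatment of the HFD mice and give no age at collection. According to them, some mice of each group of the study were injected with insulin before tissue was taken. Whether these were the mice sequenced is not stated there. The sources do not say which muscle was taken, and RNA was read in whole tissue, where fewer cells of a type and less RNA per cell cannot be told apart.

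The labels name skeletal muscle as the tissue and retinas in the extraction text. All 8 skeletal muscle fibre markers were present in each group, with a summed level of 58100 to 92900 CPM of both tables. The 5 retina markers found summed to 0.392 to 1.43 CPM. Total counts over both tables were 20281801 to 34021101 per mouse, and 12.0% to 15.4% of them were in the lncRNA table. At these depths, 95% Wilson intervals of the members' share in a mouse were at most 0.116 percentage points wide, and they cover counting error only. The fourth HFD mouse stood apart in several of the values given here, and the third control mouse and the third HFD + MET mouse had the highest adipocyte marker levels.

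Long noncoding RNA tables of whole tissue hold RNAs of different kinds. Small structural RNAs made by RNA polymerase III are among the most abundant RNAs of every cell. These are 7SL RNA, the scaffold of the signal recognition particle that brings ribosomes to the endoplasmic reticulum, 7SK RNA, which holds the transcription elongation factor P-TEFb inactive, and the RNA parts of RNase MRP and RNase P, which process ribosomal and transfer RNA precursors. Longer RNA polymerase II transcripts such as Norad, which binds PUMILIO proteins, and Kcnq1ot1, an imprinted RNA that silences its neighbours in cis, are also counted. Many entries of lncRNA catalogues lie inside the long 3′ UTRs of coding genes.

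The first 2 places belonged to the 7SL genes Rn7s1 and Rn7s2. Transcript sequences were compared, from GENCODE M21 on GRCm38, because they decide what the counts can separate. Rn7s1 lies at chr12:69159295-69159594 on the plus strand and Rn7s2 at chr12:69361182-69361481 on the minus strand, both outside coding genes. Their 300 bases are identical. Another pair, whose sequences are shown because they are shared in part, is Rn7sk, at chr9:78175303-78175633 on the minus strand, and Gm24447, at chr15:93234363-93234700 on the plus strand. Of this pair, bases 182 to 331 of Rn7sk and 182 to 338 of Gm24447 are shown, in lower case the last 60 bases before the sequences part and in capitals the bases that follow.
Rn7sk: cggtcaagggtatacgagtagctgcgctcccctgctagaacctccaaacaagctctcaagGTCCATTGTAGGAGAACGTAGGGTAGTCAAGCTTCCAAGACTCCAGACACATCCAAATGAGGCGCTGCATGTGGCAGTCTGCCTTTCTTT
Gm24447: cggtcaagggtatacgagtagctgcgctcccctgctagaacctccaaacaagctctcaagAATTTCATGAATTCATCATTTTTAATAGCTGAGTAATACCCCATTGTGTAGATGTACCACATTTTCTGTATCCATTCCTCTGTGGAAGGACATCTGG

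Rn7sk and Gm24447 are identical over their first 241 bases, and a read from that part matches both. Other members have near copies as well. Gm13340, at chr2:22588103-22589647 in an intron of Myo3a, is 97.6% identical to the mitochondrial gene mt-Co1 over its 1545 bases. Gm1821, a ubiquitin pseudogene, is 98.5% identical to the coding gene Ubb over 685 bases. Gm7292 is 99.2% identical to Norad over an alignment of 2537 bases. How the counting divided reads between such copies is not given in the sources used here, so the split between copies is uncertain.

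The members held 56.9% to 69.8% of the lncRNA counts of a mouse, with a mean of 63.3% ± 2.64 (SD, n = 16), and 7.51% to 9.91% of the counts of both tables. The 10 most abundant rows alone held 48.9% to 62.1%, and the rows of the 4 regions left out held 0.618% to 3.03%. By group, the share was 62.1% ± 1.58 in control mice, 65.1% ± 3.22 in HFD mice, 63.8% ± 1.28 under resveratrol, and 62.1% ± 3.47 under metformin (SD, n = 4 each), and the groups overlapped. The fourth HFD mouse had the highest share (69.8%, against 62.9% to 64.4% in the other HFD mice) and the third HFD + MET mouse the lowest (56.9%, against 63.6% to 64.0%).

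**Figure D1:**
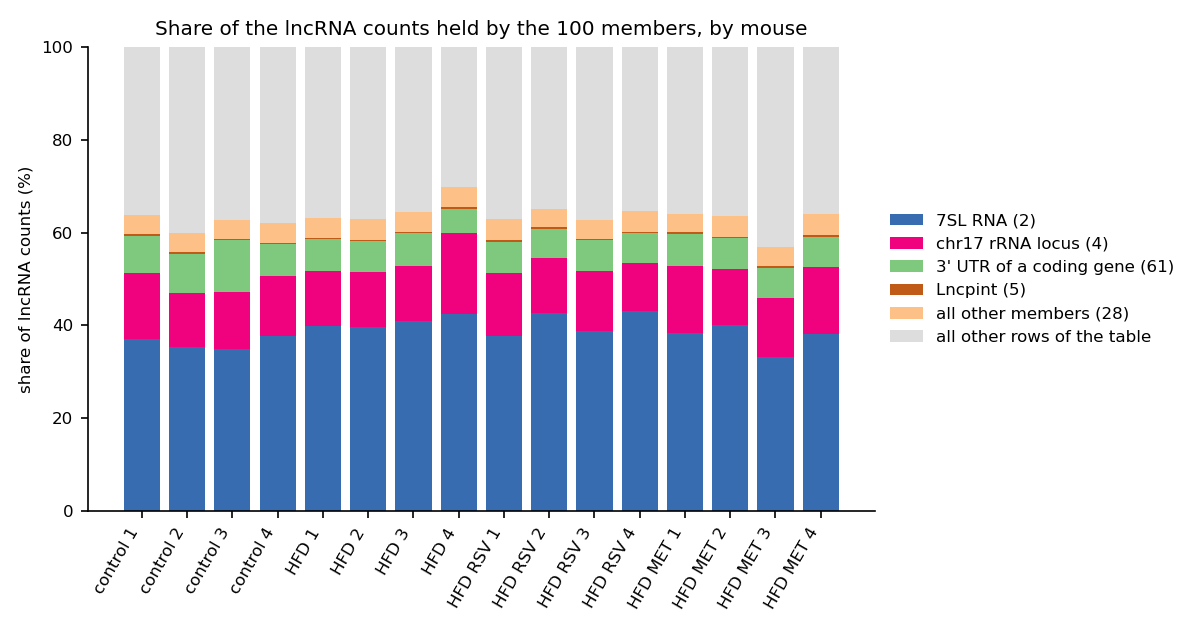
Share of the lncRNA counts in percent (y axis) for each of the 16 mice (x axis), stacked by class of member, with all other rows of the table in grey. The 7SL rows form the largest block in each mouse, at 33.1% to 43.1%, and the rRNA block of the fourth HFD mouse (17.6%) is taller than in the other mice of its group.

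The 7SL rows held 38.8% ± 2.83 of the lncRNA counts (SD, n = 16). Their summed share was 34.9% to 37.7% in the control mice, 39.7% to 42.4% in the HFD mice, 37.8% to 43.1% in the HFD + RSV mice, and 33.1% to 40.1% in the HFD + MET mice. The HFD and HFD + RSV mice were above all control mice in this share. Rn7s1 had a mean count of 1061193 and Rn7s2 of 303143, a ratio of 3.01 to 3.96 in each mouse for the same 300 bases. In edgeR, after TMM scaling within the lncRNA table, the log2FC of HFD against control was 0.31 ± 0.11 for Rn7s1 (SE, adjusted P = 0.145) and 0.40 ± 0.12 for Rn7s2 (adjusted P = 0.0795), and neither passed. In deposited FPKM, which are scaled by both tables, Rn7s1 was 118000, 128000, 130000, and 139000 in the control mice and 123000, 127000, 131000, and 158000 in the HFD mice, and the groups overlapped. All log2FC values given here are on the edgeR scale and can differ from the ratio of FPKM values.

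**Figure D2:**
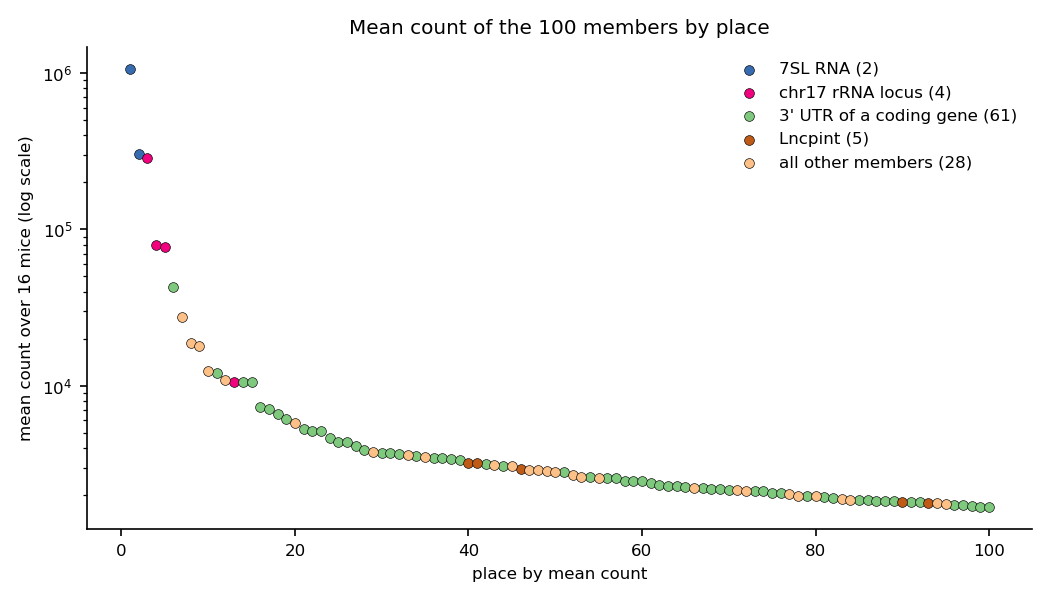
Mean count over 16 mice on a log scale (y axis) against place in the ranking (x axis), with each of the 100 members coloured by class. The counts fall from 1061193 in place 1 to 12389 in place 10 and 1675 in place 100, and the 61 rows in 3′ UTRs of coding genes begin at place 6.

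After 7SL, the next block was a locus at chr17:39842995-39848829. Its 4 rows were Gm26917, Gm42418, NONMMUT144872.1, and NONMMUT029636.2, in places 3, 4, 5, and 13. RefSeq places Rn18s-rs5, a pseudogene related to 18S ribosomal RNA, in this interval, and GENCODE an rRNA gene whose transcript matches Gm42418 without mismatch over 1244 bases on the opposite strand. For Gm26917, the most abundant of the 4 rows, the search for near copies found no match in another gene. According to the study's methods, ribosomal RNA was removed before the libraries were made. The 4 rows held 10.3% to 17.6% of the lncRNA counts, and none differed between groups at an adjusted P < 0.05 in edgeR in the 5 comparisons. The summed level was 25100 CPM in the fourth HFD mouse against 14100 to 15000 CPM in the other HFD mice. It was 14500 to 18900 CPM in the control mice, 13100 to 17000 CPM in the HFD + RSV mice, and 15300 to 18900 CPM in the HFD + MET mice.

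None of the other structural RNAs passed in HFD against control. Rmrp, the RNA of RNase MRP (chr4:43492788-43493058), was at 3260, 3250, 3390, and 3710 FPKM in the HFD mice and at 3580, 3530, 5060, and 4240 FPKM in the control mice. Its log2FC was -0.02 ± 0.11 (SE, adjusted P = 0.956). Of its span, 45.8% lies in exons of Ccdc107. Rpph1, the RNA of RNase P (chr14:50807449-50807767, with 73.0% of its span in the 5′ UTR of Ccnb1ip1), had a log2FC of -0.03 ± 0.22 (adjusted P = 0.971). Rn7sk had a log2FC of 0.35 ± 0.15 (adjusted P = 0.205), and Scarna2, a guide RNA for modification of spliceosomal RNA, of 0.21 ± 0.18 (adjusted P = 0.579). Scarna2 was at 362 FPKM in the fourth HFD mouse and at 190 to 208 FPKM in the others of that group. Gm24447 was at 600 FPKM in the fourth HFD mouse and at 268 to 289 FPKM in the others.

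By identifier, 17 members came from Ensembl and 83 from NONCODE, a catalogue of noncoding RNAs. A single block of sequence without an intron made up 90 of the members, and their lengths ran from 216 to 84395 bases with a median of 2581. The span of 62 members lay by at least 50% in exons of 59 coding genes, 10 touched exons with a smaller part, 3 lay in introns, and 25 lay outside coding genes. At least 50% of the span lay in annotated 3′ UTR in 61 members, and at least 90% in 60 of them, whereas 10 held any coding base. The same share, 61%, was found in the rows in places 101 to 200, against 10.2% of the 16503 rows tested in 12 mice and 6.33% of all rows outside the 4 regions. The strand is not in the deposited tables and the kit named in the labels does not mark it, so reads of a row in a 3′ UTR and reads of the coding gene cannot be told apart. These 61 rows held 5.16% to 11.1% of the lncRNA counts. In the control mice their share was 6.77% to 11.1%, and the highest value was that of the third control mouse.

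Among the genes that hold these rows were genes of the sarcomere and its calcium stores and genes of insulin signalling. Trdn (triadin, chr10:33474572-33476644) and Tmem38a (the TRIC-A channel, chr8:72586623-72587282) belong to the sarcoplasmic reticulum. Mylk4 is a kinase related to myosin light chain kinases, Myoz3 is a protein of the Z-disc, and Klhl31 is a muscle protein of the Kelch family. Insr is the insulin receptor and Irs1 (chr1:82233107-82237090) the adaptor that it phosphorylates. Scd1 (chr19:44394455-44397265) makes monounsaturated fatty acids, and its row was in place 6 with a mean count of 43001.

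The comparison of the HFD group with the control group asks what the diet changed. Of the 100 members, all passed the filter on low counts, and 13 rose and 2 fell in the HFD group at an adjusted P < 0.05 in edgeR. Of all 16503 rows tested, 3.25% passed, with 2.1% higher and 1.16% lower. Among rows in places 101 to 200, 13.1% passed, among those in places 201 to 1000, 10.4%, and among those in places 1001 to 5000, 5.37%. A second rule, which follows the study's criteria, asks for an unadjusted P < 0.05 in edgeR together with a log2FC beyond 1 in either direction. It called 8 members (5 higher and 3 lower), against 5.9% of all rows (2.91% higher and 2.99% lower). The median log2FC was 0.31 over the members and -0.01 over all rows, and 79 members had a positive log2FC. Without a TMM factor the median of all rows shifted by -0.165, and the members' median was 0.15 with 69 positive. The calls were then 7 higher and 4 lower where 3.75% of all rows passed, and with TMM factors over both tables they were 8 higher and 3 lower where 3.26% did.

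The number of passing members depended on single mice, and so did the share of all rows that passed. It was 28 without the first control mouse (3.79% of all rows), 4 without the second (0.651%), 7 without the third (1.27%), and 8 without the fourth (1.95%). It was 6 without the first or the second HFD mouse (1.29% and 1.27% of all rows), 5 without the third (1%), and 17 without the fourth (2.44%). With all 16 mice in 1 fit it was 3 (1.61%), and in DESeq2 29 (5.45%).

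**Figure D3:**
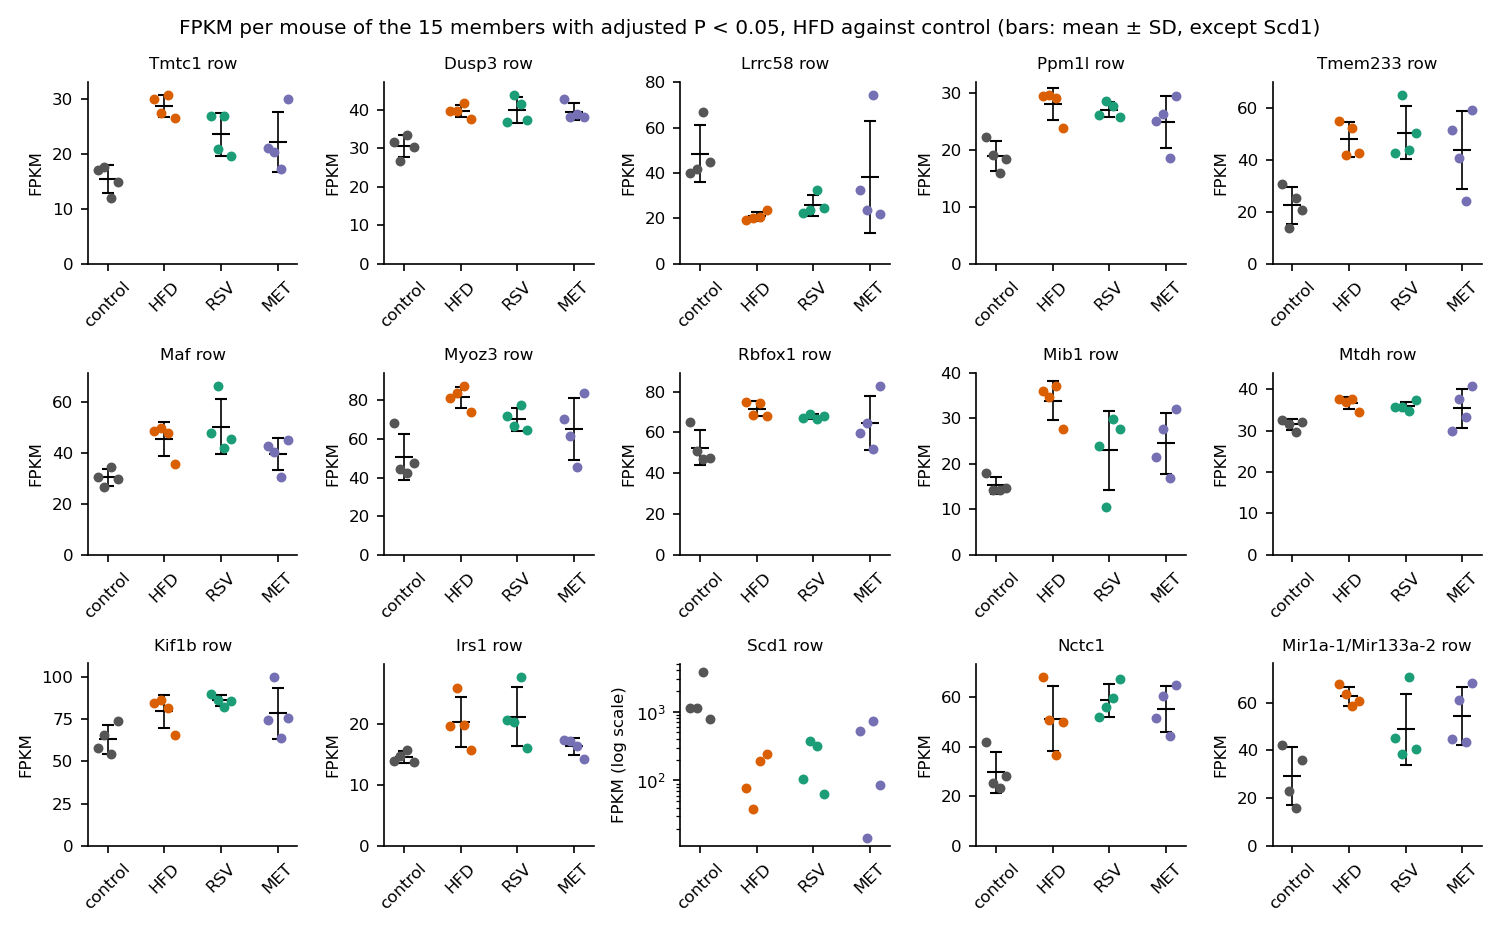
Deposited FPKM per mouse (y axis, log scale for Scd1) in the 4 groups (x axis) for the 15 members with an adjusted P < 0.05 in HFD against control, with mean ± SD (n = 4) except for Scd1. Points of the control and HFD groups overlap for Kif1b, Irs1, and Nctc1. The rows were picked by their test on these same mice, so the separation in the other panels adds no support.

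The rows of Tmtc1, Tmem233, Dusp3, and Lrrc58 passed in all 8 fits that left out 1 mouse. With all 16 mice in 1 edgeR fit, Tmtc1 and Dusp3 still passed (adjusted P = 0.0235 and 0.0259), as did Mib1 (adjusted P = 0.0424). Tmem233 and Lrrc58 did not pass in that edgeR fit (adjusted P = 0.0527 and 0.0641). The row in Tmtc1 (chr6:148232462-148236189), which encodes a mannosyltransferase of the endoplasmic reticulum, was at 17, 17.6, 12.0, and 14.8 FPKM in the control mice and at 30.0, 27.5, 30.7, and 26.5 FPKM in the HFD mice. It rose by a log2FC of 1.13 ± 0.16 (SE, adjusted P = 0.00843). All HFD mice were above all control mice. The HFD + RSV mice, at 19.6 to 26.9 FPKM, lay between these groups and overlapped the HFD mice.

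The row in Tmem233 (chr5:116038762-116040414), a transmembrane protein gene, was at 30.8, 14, 25.2, and 20.6 FPKM in the control mice and at 55.2, 41.9, 52.3, and 42.7 FPKM in the HFD mice. Its log2FC was 1.31 ± 0.24 (adjusted P = 0.0157). The row in Dusp3 (chr11:101971148-101972975), a phosphatase of MAP kinases, was at 31.8, 26.7, 33.5, and 30.3 FPKM in the control mice and at 37.7 to 41.8 FPKM in the HFD mice, with a log2FC of 0.62 ± 0.10 (adjusted P = 0.0126). All 12 mice on the high-fat diet were above all control mice in the Dusp3 row, with 37.0 to 43.9 FPKM under resveratrol and 38.2 to 42.8 FPKM under metformin. The row in Lrrc58 (chr16:37885942-37888788) fell, from 39.9, 41.6, 66.9, and 45 FPKM in the control mice to 19.1, 20.2, 20.6, and 23.9 FPKM in the HFD mice, with a log2FC of -0.95 ± 0.16 (adjusted P = 0.0126).

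The row in Ppm1l (chr3:69554471-69557658), a membrane phosphatase of stress kinase signalling, was at 16 to 22.3 FPKM in the control mice and 23.9 to 29.6 FPKM in the HFD mice. Its log2FC was 0.80 ± 0.14 (adjusted P = 0.0153, and 0.0556 without the second control mouse). The row in Maf (chr8:115703410-115704953), a transcription factor gene, was at 26.5 to 34.6 FPKM in the control mice and 35.7 to 50 FPKM in the HFD mice, with a log2FC of 0.83 ± 0.16 (adjusted P = 0.0183). It passed in 5 of the 8 fits that left out 1 mouse. The row in Myoz3 was at 42.4 to 68.4 FPKM in the control mice and 74.1 to 87.4 FPKM in the HFD mice. Its log2FC was 0.90 ± 0.18 (adjusted P = 0.0215), and it passed in 2 of the 8 fits. These rows, which were picked by their test on the same mice, all separated the control mice from the HFD mice.

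The remaining members that rose were rows in Rbfox1, a splicing regulator of muscle and neurons, Mib1, a ubiquitin ligase of the Notch pathway, Mtdh, Kif1b, a kinesin motor, and Irs1, besides Nctc1 and NONMMUT041832.2. Their log2FC ran from 0.45 to 1.38, and each passed in 1 to 3 of the 8 fits that left out 1 mouse. The row in Irs1 was at 14, 14.8, 15.8, and 13.7 FPKM in the control mice and at 19.7, 25.9, 19.9, and 15.8 FPKM in the HFD mice, with a log2FC of 0.73 ± 0.17 (adjusted P = 0.043).

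Of the 15 members, 2 were multi-exon transcripts outside coding genes. Nctc1 (chr7:142553700-142558596) lies in the imprinted region that holds H19 and is known to be transcribed in muscle. It was at 41.8, 25.2, 23.5, and 28.1 FPKM in the control mice and at 68.2, 50.9, 36.5, and 50.1 FPKM in the HFD mice, and the groups overlapped. Its log2FC was 1.01 ± 0.25 (adjusted P = 0.0487). It was at 51.9 to 67.2 FPKM in the HFD + RSV mice and at 44.2 to 65.1 FPKM in the HFD + MET mice, above all control mice. NONMMUT041832.2 (chr2:180385604-180401802) spans the genes of the muscle microRNAs Mir1a-1 and Mir133a-2. It also overlaps B230312C02Rik, which the study lists as higher in the HFD group and lower under resveratrol. This row was at 42.3, 22.9, 16, and 36.0 FPKM in the control mice and at 67.7, 63.5, 58.7, and 60.9 FPKM in the HFD mice. Its log2FC was 1.31 ± 0.32 (adjusted P = 0.0487 in edgeR). Counts not scaled for depth were 2373, 2039, 3752, and 2258 in the HFD + RSV mice, against 3013 to 3938 in the HFD mice. They were 1826 to 4646 in the HFD + MET mice. Nctc1 and NONMMUT041832.2 both passed in 1 of the 8 fits that left out 1 mouse, that without the first control mouse.

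Oip5os1 and Norad, which are known as conserved cytoplasmic lncRNAs, did not pass. Oip5os1 (listed as 1700020I14Rik, chr2:119594303-119607502) was at 55.9 to 79.2 FPKM in the control mice and at 72.7 to 99.1 FPKM in the HFD mice, with a log2FC of 0.62 ± 0.16 (adjusted P = 0.0612). Norad (listed as 2900097C17Rik, chr2:156388065-156392979) was at 65.4 to 93.7 FPKM in the control mice and at 99.1 FPKM or more in the HFD mice, which did not overlap, with a log2FC of 0.50 ± 0.14 (adjusted P = 0.0816).

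The row in Scd1 had the largest fall among the members. It was at 1140, 1110, 3790, and 778 FPKM in the control mice and at 77.4, 38.4, 191, and 243 FPKM in the HFD mice. It was at 62.7 to 369 FPKM in the HFD + RSV mice and at 14.8 to 732 FPKM in the HFD + MET mice. The log2FC of HFD against control was -3.36 ± 0.78 (SE, adjusted P = 0.047), and it passed in none of the 8 fits that left out 1 mouse, with an adjusted P of 0.0591 to 0.127. DESeq2 gave an adjusted P of 6.49e-05. All control mice were above all other mice.

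Adipocyte markers were set beside this row. The 5 white adipocyte markers (Adipoq, Plin1, Cfd, Retn, and Lep) summed to 575, 394, 2090, and 869 CPM in the control mice and to 64.2, 34.3, 184, and 459 CPM in the HFD mice, and to 68.9 to 578 CPM under resveratrol and 20.8 to 2220 CPM under metformin. The control and HFD sums overlapped, whereas the Scd1 row did not. Lep went the other way, at 4.29, 2.65, 10.5, and 24.2 CPM in the control mice and 14.2, 3.4, 47.6, and 33.6 CPM in the HFD mice. The 3 brown adipocyte markers (Ucp1, Cidea, and Elovl3) summed to 23.3 to 735 CPM in the control mice and 1.04 to 3.06 CPM in the HFD mice. In the mRNA table, 3 of the 3 brown and 0 of the 5 white markers were lower in the HFD group at an adjusted P < 0.05 in edgeR. Without the third control mouse the log2FC of the Scd1 row was -2.68 (adjusted P = 0.126) and that of the Lrrc58 row -0.79 (adjusted P = 0.0341). Skeletal muscle fibre markers summed to 58800 to 82000 CPM in the control mice and 81400 to 87200 CPM in the HFD mice, and 2 of 8 were higher at an adjusted P < 0.05. Of the 3 endothelial markers, 2 were lower, with a summed level of 207 to 282 CPM in the control mice and 184 to 213 CPM in the HFD mice. The 4 Schwann cell markers summed to 37.3 to 135 CPM in the control mice and 25.9 to 31.5 CPM in the HFD mice, which did not overlap, and none of them passed. None of the erythroid, macrophage, or tendon and fibroblast markers passed either. The share of all 15097 mRNA genes tested that passed is not given here, so these counts do not describe the markers alone. The part of these cell types in the differences was not tested.

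Among the members outside coding genes, 2 had the pattern of the Scd1 row in the control and HFD mice and were chosen after their values were seen. NONMMUT011311.2 (chr11:86812765-86816129, upstream of Dhx40) was at 36.3, 33.6, 134, and 52.7 FPKM in the control mice and at 6.76, 5.38, 12.1, and 30.6 FPKM in the HFD mice. Its log2FC was -1.95 ± 0.68 (adjusted P = 0.147). NONMMUT033452.2 (chr19:4062439-4065879, upstream of Gstp3) was at 23.4, 25.0, 82.3, and 31.7 FPKM in the control mice and at 4.47, 3.96, 7.49, and 20.2 FPKM in the HFD mice, with a log2FC of -1.90 ± 0.68 (adjusted P = 0.156). In the third HFD + MET mouse these rows were at 120 and 79.6 FPKM, above some control mice, unlike the Scd1 row. The 2 mice with the most white adipocyte marker RNA were thus the 2 highest in both rows.

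Rows inside coding genes were set beside the gene itself, as counted in the mRNA table. Of 61 such pairs that could be compared, 54 had the same sign of log2FC in HFD against control. Across these pairs, which share mice and are not independent, Pearson's r was 0.89 and Spearman's rho 0.75. The median log2FC was 0.37 for the rows and 0.25 for the genes. Among the same pairs, 44 had the same sign in HFD + RSV against HFD (r -0.1, rho 0.41) and 55 in HFD + RSV against control (r 0.29, rho 0.76). In HFD + MET, 51 had it against HFD (r 0.69, rho 0.64) and 53 against control (r 0.88, rho 0.83). The 13 passing members of this kind all had the sign of their gene, and for 10 of them the gene passed as well. In 18 of all 61 pairs the gene passed. The share of all mRNA genes that passed is not given here, so these counts do not describe these genes alone. Reads of a row and of its gene cannot be told apart, so this agreement is no independent support. The Tmtc1 gene had a log2FC of 0.93 ± 0.14 (adjusted P = 0.00627), Tmem233 of 1.31 ± 0.22 (adjusted P = 0.00828), Lrrc58 of -1.01 ± 0.14 (adjusted P = 0.00448), and Scd1 of -3.60 ± 0.75 (adjusted P = 0.0176). Dusp3, Kif1b, and Mtdh had gene values of 0.38 (adjusted P = 0.181), 0.24 (adjusted P = 0.105), and 0.28 (adjusted P = 0.0526). With the counts of row and gene added, 12 of the 13 passed, and Kif1b did not (adjusted P = 0.076).

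**Figure D4:**
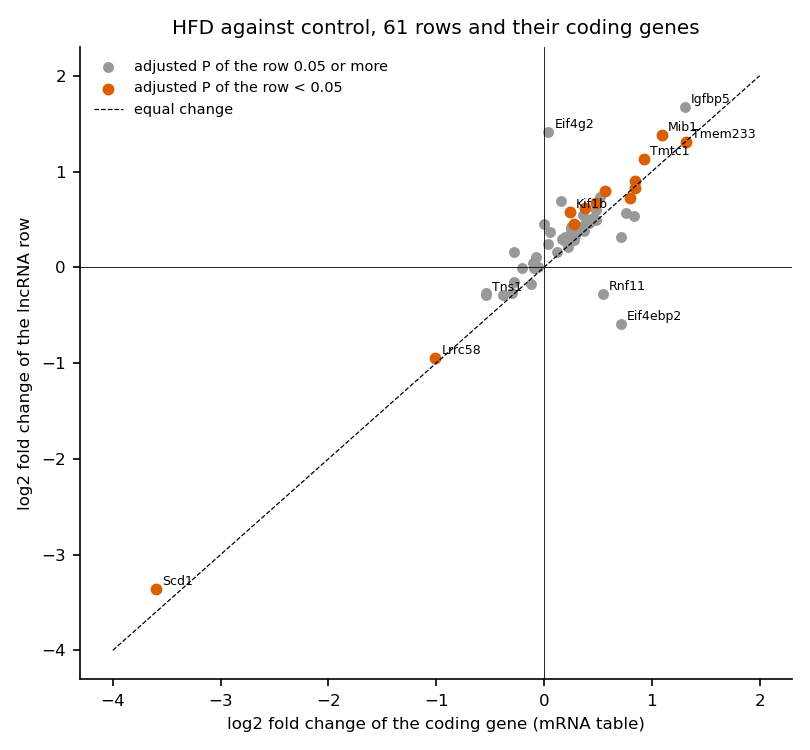
log2 fold change of HFD against control for 61 lncRNA rows (y axis) and for the coding genes whose exons hold them, from the mRNA table (x axis), with the 13 passing rows in orange and the line of equal change dashed. Most points lie near the line, from Scd1 at -3.60 and -3.36 to Tmem233 at 1.31 and 1.31, while Eif4ebp2, Rnf11, and Eif4g2 lie off it.

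The row and its gene divided the reads in different proportions. The row held a median of 88.9% of the sum of row and gene in Dusp3, 66.8% in Scd1, 54.0% in Trdn, 30.3% in Lrrc58, and 14.2% in Eif4g2. In Scd1 the percentage was 65.0% to 70.8% over the 16 mice. In Rnf11 it was 38.3% to 82.5%, and there the gene rose in the HFD group (log2FC 0.54 ± 0.15, adjusted P = 0.0443) while the row had a log2FC of -0.28 and the sum of -0.14 (adjusted P = 0.803).

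Some members were present in some mice and nearly absent in others of the same group. In 7 members, at least 1 mouse was below 5% of the median mouse, and 1 further member exceeded 20 times its median in at least 1 mouse. These members were chosen after their values were seen. The row in Eif4ebp2 (chr10:61428875-61432943), a repressor of translation initiation under mTOR control, had 19 to 26 counts in 11 mice and 6360 to 9073 counts in 5 mice. The 5 mice were 2 control mice, 1 HFD mouse, and 2 HFD + MET mice. The Eif4ebp2 gene was at 59.2 to 75.2 CPM in those 5 mice and at 274 to 343 CPM in the other 11. Row and gene together were at 330 to 405 CPM in the 5 mice and at 275 to 344 CPM in the 11.

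**Figure D5:**
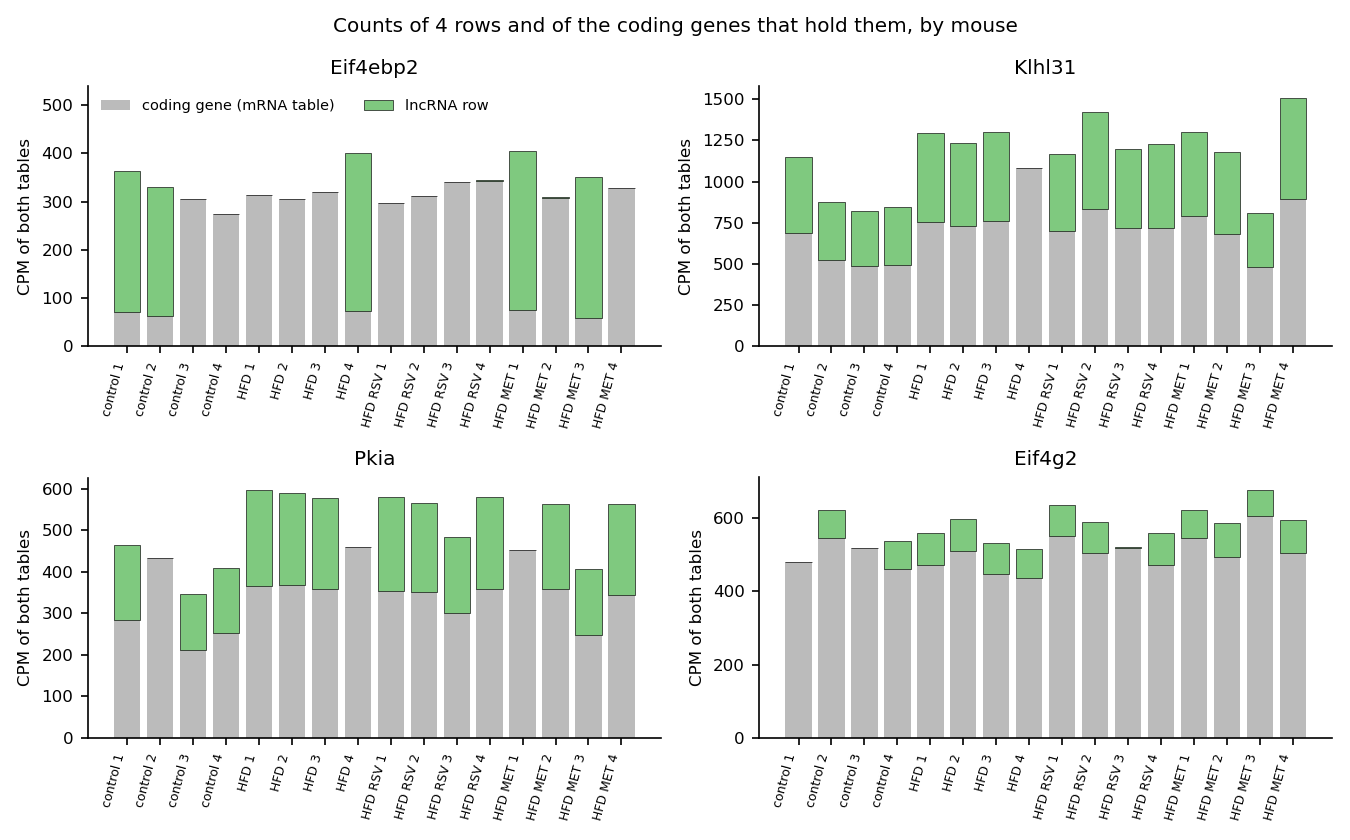
CPM of both tables (y axis) per mouse (x axis) of 4 rows in 3′ UTRs (green) stacked on the coding genes that hold them (grey). In Eif4ebp2 the green part is large in 5 mice, where the grey part is 59.2 to 75.2 CPM, and the stacks differ less between mice than either part.

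In Klhl31 (chr9:77657328-77660120) the row had 10 counts in the fourth HFD mouse, where the gene was at 1080 CPM, and 7341 to 20609 counts in the other 15 mice, where the gene was at 483 to 894 CPM. The row in Mylk4 had 6 counts in 1 HFD mouse and at least 5711 in the others. The row in Pkia, an inhibitor of protein kinase A, had 4 to 5 counts in 3 mice, 1 each of the control, HFD, and HFD + MET groups, and at least 3263 in the other 13. The row in Eif4g2 had 5 to 6 counts in 3 mice and 1534 to 3006 in 13, while the gene was at 480 to 520 CPM and 437 to 606 CPM. The row in Igfbp5, a binding protein of insulin-like growth factors, had 9 counts in each of 2 mice and at least 1697 in the other 14. The Igfbp5 gene rose in the HFD group by a log2FC of 1.31 (adjusted P = 0.00141 in edgeR), and the row had a log2FC of 1.68 (adjusted P = 0.348).

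Kcnq1ot1 (chr7:143212155-143296549), with a row length of 84395 bases, had no counts in 5 mice, namely 2 control mice, 2 HFD mice, and 1 HFD + RSV mouse. A count of 0 allows at most 0.0882 to 0.143 CPM there, and the other 11 mice were at 72.9 to 267 CPM. Its log2FC of HFD against control was 0.74 ± 2.59 (adjusted P = 0.918). For NONMMUT151470.1, which shares 13.3% of its span with exons of Ckm and is annotated as A930016O22Rik, the FPKM were 2.20, 1.40, 28.1, and 35.8 in the control mice and 39.7 to 62.8 in the HFD mice. They were at 2.77 to 48.8 in the HFD + RSV mice and 1.79 to 53.0 in the HFD + MET mice, so that 3 groups held both low and high mice. None of the 8 rows with such mice differed between groups at an adjusted P < 0.05 in edgeR in the 5 comparisons.

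The 5 Lncpint rows lie between chr6:31089344 and chr6:31217534. Lncpint is known as an intergenic RNA under the control of p53. None of the 5 passed at an adjusted P < 0.05 in edgeR in HFD against control. NONMMUT150367.1 and NONMMUT150368.1, at the end of the interval with the higher coordinates, were at 30.2 to 41.5 and 26.5 to 37.0 FPKM in the control mice and at 19.1 to 28.9 and 18.1 to 24.1 FPKM in the HFD mice, which did not overlap. Their log2FC were -0.44 ± 0.18 and -0.45 ± 0.17 (adjusted P = 0.197 and 0.154). The other 3 rows, NONMMUT150308.1, NONMMUT150328.1, and NONMMUT150329.1, had log2FC of 0.30, 0.13, and 0.14 in the same comparison (adjusted P = 0.374, 0.689, and 0.661), and those of NONMMUT150328.1 and NONMMUT150329.1 were -0.04 and -0.02 without a TMM factor.

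The comparison of HFD + RSV with HFD sets mice given resveratrol under the diet against mice on the diet for which no vehicle is named. No member passed at an adjusted P < 0.05 in edgeR or in DESeq2, against 0.0182% of all 16503 rows. At an unadjusted P < 0.05, 6 members were lower and none higher, where 6.86% of all rows passed. The smallest P values belonged to the 3 Lncpint rows near the end with the lower coordinates. NONMMUT150308.1 was at 20.5, 11.5, 15.2, and 18.9 FPKM in the HFD mice and at 14, 9.51, 12.2, and 10.3 FPKM in the HFD + RSV mice, which overlapped, with a log2FC of -0.62 ± 0.17 (adjusted P = 0.496). NONMMUT150329.1 and NONMMUT150328.1 had log2FC of -0.47 and -0.46 (adjusted P = 0.553 and 0.572).

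Among the members with a positive log2FC under resveratrol, the smallest P values were those of NONMMUT150590.1, in the pseudogene Tpt1-ps3, with 0.19 ± 0.12 (adjusted P = 0.867), and of the rows in Msrb3 and Pde4d, with 0.33 ± 0.22 (adjusted P = 0.874) and 0.41 ± 0.28 (adjusted P = 0.877). By the rule on unadjusted P and fold, 1 member was called, lower, against 1.87% of all rows (1.01% higher and 0.854% lower). This was the Eif4ebp2 row with a log2FC of -6.61 ± 2.67 (adjusted P = 0.689), which rests on the single HFD mouse that was high. It was not called without the fourth HFD mouse, without any 1 of the 4 HFD + RSV mice, or with row and gene summed. The median log2FC of the members was -0.05 with 34 positive, and 54 were positive without a TMM factor.

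Against the control group, the HFD + RSV group had 2 higher members at an adjusted P < 0.05 in edgeR, against 0.394% of all rows (0.339% higher and 0.0545% lower). The Maf row was at 42.0 to 66.3 FPKM in the HFD + RSV mice, with a log2FC of 0.86 ± 0.16 (adjusted P = 0.0441). The Tmem233 row was at 42.9 to 65.1 FPKM, with a log2FC of 1.28 ± 0.24 (adjusted P = 0.0469). Each was above all control mice, and each passed in 1 of the 8 fits that left out 1 mouse, where the count of passing members was 12 without the first control mouse, where 1.06% of all rows passed, and 0 without any other. The rows of Dusp3 and Lrrc58 had log2FC of 0.52 ± 0.10 (adjusted P = 0.0559) and -0.75 ± 0.16 (adjusted P = 0.0735), and the Scd1 row -2.85 ± 0.76 (adjusted P = 0.156). The row in Acadsb, an enzyme of branched-chain acyl-CoA breakdown, was at 28.7 to 32.7 FPKM in the HFD + RSV mice and 36.6 to 53.1 FPKM in the control mice, with a log2FC of -0.30 ± 0.10 (adjusted P = 0.248). By the rule on unadjusted P and fold, 6 members were called (2 higher and 4 lower), against 3.36% of all rows (1.96% higher and 1.41% lower). These 2 comparisons share the HFD + RSV mice, and those against the control group share the control mice.

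In HFD + MET against HFD, read from the fit of all 16 mice, no member passed at an adjusted P < 0.05 in edgeR or in DESeq2, and 0 of the 17599 rows tested passed (0%). At an unadjusted P < 0.05, 4 members passed where 6.95% of all rows did. By the rule on unadjusted P and fold, 0 members were called, against 2.38% of all rows (1.33% higher and 1.05% lower). The Irs1 row was at 17.3, 17.2, 16.4, and 14.3 FPKM in the HFD + MET mice, with a log2FC of -0.52 ± 0.18 (adjusted P = 0.66). The Tmtc1 row had -0.55 ± 0.22 (adjusted P = 0.683) and Rn7sk -0.31 ± 0.14 (adjusted P = 0.71). The Lrrc58 row was at 32.6, 23.8, 74.3, and 22.1 FPKM, with a log2FC of 0.57 ± 0.25 (adjusted P = 0.684), and its highest mouse was the third, which was also highest in adipocyte markers. NONMMUT033452.2 and a row in Tns1, a focal adhesion protein gene, had log2FC of 1.40 ± 0.83 (adjusted P = 0.766) and 0.31 ± 0.20 (adjusted P = 0.796), and both were also highest in that mouse. The median log2FC of the members was -0.19 with 17 positive, and it was -0.05 with 40 positive without a TMM factor, which shifted the median of all rows by 0.159.

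In HFD + MET against control, no member and none of the 17599 rows passed at an adjusted P < 0.05 in edgeR (0%), while DESeq2 called 1 member and 0.693% of all rows. At an unadjusted P < 0.05, 15 members passed, where 9.98% of all rows did. Nctc1 had a log2FC of 0.95 ± 0.26 (adjusted P = 0.262), the Dusp3 row 0.43 ± 0.12 (adjusted P = 0.28), and the Tmem233 row 1.04 ± 0.32 (adjusted P = 0.297). The Lncpint rows NONMMUT150368.1 and NONMMUT150367.1 had -0.59 ± 0.16 (adjusted P = 0.227) and -0.58 ± 0.17 (adjusted P = 0.283), with HFD + MET mice at 19 to 24.4 FPKM and 20.5 to 27.5 FPKM, below all control mice. By the rule on unadjusted P and fold, 2 members were called (Tmem233 higher and Scd1 lower), against 2.86% of all rows (1.68% higher and 1.18% lower). Without 1 mouse, this count was 4 without the first control mouse (3.65% of all rows) or the third HFD + MET mouse (4.33%), 1 without the second or the third control mouse (2.84% and 2.83%), and 0 without the fourth HFD + MET mouse (2.88%).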

How the data were processed

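The authors made libraries from skeletal muscle RNA of 16 mice after removal of ribosomal RNA. According to the submitters' processing notes, fastp, HISAT2, and GRCm38 were used, and according to the study's methods fragments were counted with StringTie. The authors deposited expected counts, which are whole numbers without normalization, for 58245 lncRNA rows and 82388 mRNA transcripts with 23235 gene names. The deposited FPKM values equal the count divided by the length and the total of both tables within 1% in 100.0% of the values. FPKM values give levels per mouse, and CPM values are counts scaled to the total of both tables.

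Members were chosen by mean count, and the members and lists were chosen with earlier results of these data known. The rule named the 10 most abundant members, up to 6 members per direction with an adjusted P < 0.05 in each comparison (or the 3 with the smallest P where fewer than 3 passed), the rows around place 100, known RNAs, and members of loci with 3 or more members. Counts were tested with edgeR 4.0.16 in R 4.3.3 (filterByExpr, minimum count 10, minimum total 15, TMM within the lncRNA table, robust quasi-likelihood test, Benjamini-Hochberg adjustment over all rows tested). Comparisons without metformin used 12 mice in 1 fit (16503 rows), and those with metformin used 16 mice (17599 rows). Coding genes were tested likewise on counts summed per gene name. The SE is the absolute log2FC divided by the square root of F. The test was checked on simulated data. P values set a group difference against the spread between mice. Positions refer to GENCODE M21 on GRCm38, where 98.7% of the rows with Ensembl identifiers had the same coordinates. The planned definition of loci and overlaps by strand could not be applied because the tables hold no strand, and spans were used regardless of it. Near copies were searched with BLAST 2.17.0. The sequence of the 7SL rows is not reported here. The alternatives were DESeq2 1.42.0, other scaling, no filter, other sets of mice, each mouse left out, other rankings, and counts summed per locus. Added after seeing the data were the fits without the third control and the third HFD + MET mouse, with row and gene summed, without rows near 0 in some mice, and with the last number of the mouse label as a block.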

Additional observations from a re-analysis of the deposited data

Results flagged for a closer look

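In groups of 4 mice, a value was taken up here when its distance to the nearest mouse was so large a part of the group's range that it passed Dixon's criterion at 95%. Among 180 group values of the named rows and the shares, 18 did. For independent values chance gives about 1 in 20. Several of these values share a locus or a mouse, so the rates cannot be compared. Of the 18, 9 were in the fourth HFD mouse. There the rRNA locus held 17.6% of the lncRNA counts against 11.8% to 12.0% in the other HFD mice, Gm26917 was at 4970 FPKM against 2790 to 2950, Gm42418 at 2250 against 1370 to 1420, NONMMUT029636.2 at 219 against 70.3 to 91.1, and Scarna2 at 362 against 190 to 208. The row in Ppm1l was at 23.9 FPKM against 29.1 to 29.6, that in Maf at 35.7 against 47.9 to 50, NONMMUT150590.1 at 475 against 601 to 620, and NONMMUT047127.2, the Tmod1 row just outside the first 100, at 48.2 against 61.7 to 62.7. Without this mouse, 17 members passed in HFD against control.

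In the third control mouse the Scd1 row was at 3790 FPKM against 778 to 1140, and NONMMUT033452.2 at 82.3 against 23.4 to 31.7. This mouse also had the highest sum of white adipocyte markers of its group, 2090 CPM. In the third HFD + MET mouse, which had 2220 CPM, the members held 56.9% of the lncRNA counts against 63.6% to 64.0%, and the Pde4d row was at 3.42 FPKM against 20.6 to 23.7. In the first HFD mouse the Msrb3 row was at 56.6 FPKM against 32.8 to 34.4 and the Acadsb row at 33.6 against 29.9 to 30.4. Oip5os1 was at 105 FPKM in the second HFD + MET mouse against 73.3 to 76.7. Gm42418 was at 1510 FPKM in the fourth HFD + RSV mouse against 1630 to 1650, and Kcnq1ot1 was at 0 FPKM in the second against 2.13 to 2.56. No member differed between the HFD + RSV and HFD + MET groups at an adjusted P < 0.05 in edgeR, and 6 did at an unadjusted P < 0.05, where 5.32% of all rows did.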

How the results depend on the processing

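Members with an adjusted P < 0.05 in HFD against control numbered 15, and 3 with all 16 mice in 1 fit, 29 in DESeq2, 7 without the mice high in adipocyte markers, and 4 to 28 without 1 mouse each. The 8 called by unadjusted P and fold became 5 without the mice high in adipocyte markers and 5 among the rows with the highest mean FPKM, and 5 to 10 without 1 mouse each. In HFD + RSV against control, the 2 members at an adjusted P < 0.05 became 0 with all 16 mice in 1 fit, with TMM factors over both tables, without a TMM factor, and without the mice high in adipocyte markers, 6 without the filter, 14 in DESeq2, 4 with row and gene summed, and 0 to 12 without 1 mouse each. In HFD + RSV against HFD, the 1 member called by unadjusted P and fold became 0 with row and gene summed and among the rows with the highest mean FPKM, and 0 to 1 without 1 mouse each. In HFD + MET against HFD, the 0 called in this way became 0 to 3 without 1 mouse each. In HFD + MET against control, the 2 called in this way became 1 with only these groups in the fit, 1 without the mice high in adipocyte markers, 1 with row and gene summed, and 0 to 4 without 1 mouse each, and the 0 at an adjusted P < 0.05 became 1 in DESeq2 and 0 to 2 without 1 mouse each. The cause of these shifts was not tested. The share of all rows that passed also shifted between settings, as given above for several of them, so these counts do not describe the members alone. The members' mean share of 63.3% was 60.3% for the 50 and 66.7% for the 200 most abundant rows, and the 100 rows with the highest mean FPKM held 87.5% of the FPKM. Leaving out 1 mouse when choosing kept 99 to 100 members. In HFD against control, 49 members were followed through the alternatives. Their log2FC changed sign in 12, none of which had an adjusted P < 0.05 in edgeR. Without a TMM factor it was -0.081 in NONMMUT150590.1, -0.018 in NONMMUT150329.1, -0.039 in NONMMUT150328.1, and -0.052 in the Ddi2 row. Without the mice high in adipocyte markers it was 0.06 in Rmrp and 0.114 in Rpph1. Summed per locus it was 0.254 for NONMMUT144872.1, 0.001 for Rmrp, and -0.13 for the locus of NONMMUT150308.1, NONMMUT150328.1, and NONMMUT150329.1. With row and gene summed it was -0.046 in Ddi2 and 0.2 in Eif4ebp2. Without 1 mouse each it was -0.302 to 0.002 in NONMMUT144872.1, -0.091 to 0.06 in Rmrp, -0.299 to 0.114 in Rpph1, -0.018 to 0.383 in the Msrb3 row, -0.014 to 0.247 in NONMMUT150329.1, -0.052 to 0.331 in Scarna2, and -7.322 to 0.167 in the Eif4ebp2 row. The members that the rule named in the other comparisons kept their sign there.

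The mouse labels end in a number that recurs between groups, but do not say that it ties the mice. Over 16 pairs with the same number in the 5 comparisons, deviations from the group means correlated by -0.141 to 0.0487. A mouse was counted again in each comparison that held a partner of its number, which gave 31 entries that are not independent. In 9 of these entries the mouse was closest to a mouse of its own number. With so few pairs, these values cannot show whether such mice share anything besides the number. With this number as a block, 18 members instead of 15 had an adjusted P < 0.05 in HFD against control and 0 instead of 2 in HFD + RSV against control. The share of all rows that passed with the block is not given, so these counts do not describe the members alone. The 1 called by unadjusted P and fold in HFD + RSV against HFD became 0, and the log2FC of the Klhl31 row in HFD against control became -0.626. A comparison of 4 mice with 4 limits the precision more than the depth does, with a common biological coefficient of variation of 0.382 in 12 mice.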
